A study of Mus musculus with 12 samples.

Results

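The 26S proteasome is the cell's main protease for proteins tagged with ubiquitin, and the genes described here encode its constitutive parts. They were the protein-coding rows of the deposited gene table named Psma1 to Psma7, Psmb1 to Psmb4, Psmc1 to Psmc6 and Psmd1 to Psmd14. The rule found 31 genes of 54532 in the table, and all 31 passed the filter on low counts. Of these, 28 encode subunits of the mature particle. Psmd5, Psmd9 and Psmd10 encode chaperones that help to build its base and leave it before it is complete. The 3 constitutive catalytic subunits (Psmb5, Psmb6 and Psmb7) lie outside the rule and were used for comparison.

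RNA was sequenced in bulk from B16F10 tumours, which grow from a pigmented mouse melanoma line, wild type per the labels. The 6 iKO libraries came from Trex1 fl/fl hosts and the 6 Ctrl libraries from Trex1 wt/fl hosts. Every host carried the R26CreERT2 knock-in on 1 allele, a Cre recombinase driven from the ubiquitous Rosa26 locus and switched on by tamoxifen, so recombination was not limited to a cell type and Ctrl hosts could lose their floxed copy too. Male mice aged 8 to 12 weeks received 1000 tumour cells in the skin of each leg with Matrigel, and 1 mg of tamoxifen was given daily for 3 days starting at day 5. Tumours were collected at day 14. Tumours were digested and sorted against CD45, carried by leukocytes, and CD31, carried by endothelial cells. The question the design poses for these genes is whether loss of Trex1, a cytosolic DNA exonuclease, in the host alters their RNA in the sorted tumour. Which libraries share a host is not labelled, and each host bore tumours on both legs, so the p-values measure only the spread between libraries.

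The proteasome has a barrel-shaped core of 4 stacked rings, in which outer rings of alpha subunits gate the entrance and inner rings of beta subunits hold the proteolytic sites. A regulatory particle caps the barrel. Its base contains a ring of ATPases that unfold substrates and thread them into the core, and its lid removes ubiquitin chains. Interferons replace the constitutive catalytic subunits with those of the immunoproteasome, which alters the peptides available to MHC class I, whereas the alpha ring and the regulatory particle are shared by both forms. In mammals, transcription of the constitutive genes is raised by NRF1 (encoded by Nfe2l1) when proteasome activity falls short.

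Library totals were 29808243 to 35520399 counts in iKO and 34342436 to 45828565 counts in Ctrl. Trex1 had 0 counts in all 12 libraries, with 100% of its exon bases shared with Atrip, so the genotype labels could not be checked. Melanocyte markers were abundant throughout, summing to 15053 to 21454 CPM (counts per 1e6 counts of the library, scaled by the TMM method) in iKO and 21548 to 21937 CPM in Ctrl, and 6 of the 7 fell in iKO. Leukocyte markers were present despite the sort: their 10 genes all rose and summed to 199.8 to 2074 CPM in iKO and 67.6 to 242 CPM in Ctrl. The T cell list rose in 7 of 7 genes (median log2 fold change 6.72), macrophage markers in 6 of 7 (4.13), keratinocyte markers in 3 of 3 tested (3.82), endothelial markers in 3 of 6 with 1 lower (0.82) and fibroblast markers in 1 of 6 (1.23). Single libraries moved these medians: without iKO 2 the keratinocyte median was 1.62 with 2 genes higher and the fibroblast median 0.69, and without Ctrl 5 the macrophage median was 7.02 with 7 higher. Without iKO 6, 4 fibroblast markers were higher. On the first principal component iKO 1 (-0.973) and Ctrl 5 (-17.1) lay between the other iKO libraries (76.3 to 104) and the other Ctrl libraries (-91.6 to -74.4). In iKO 2 and iKO 3 the female-specific RNA Xist reached 219 and 117 CPM over the library total against a male label, while the other 10 libraries had 8.29 or less. In bulk RNA, fewer cells of a type and less RNA per cell cannot be told apart.

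The constitutive proteasome genes were slightly lower in iKO tumours. Of the 31 genes 17 fell, none rose and 14 did not pass the test (edgeR quasi-likelihood test, adjusted p under 0.05 over all 16164 tested genes). Among all tested genes 21.4% fell and 25.0% rose. The median log2 fold change of the 31 genes was -0.19, a change of -12.3%, beside 0.023 for all tested genes, and 28 of the 31 values were negative against 48% of all tested genes. The changes were closely spaced: the interquartile range was 0.14 on the log2 scale, against 0.68 over all tested genes. Such spacing was also seen in other housekeeping complexes, described below. In 5 genes (Psmc1, Psmd5, Psmd6, Psmd9 and Psmd14) every iKO library was below every Ctrl library, as in 11.1% of tested genes. The number of genes that fell depended on single libraries, being 9 without Ctrl 3, 8 without Ctrl 4, 8 without Ctrl 5 and 10 without iKO 4, and 9 without Ctrl 5 and iKO 1 together. Without iKO 2 and iKO 3 together it was 15. The calls of 8 genes (Psmc1, Psmc4, Psmc6, Psmd5, Psmd6, Psmd9, Psmd10 and Psmd14) were kept in each of the 12 omissions of a single library. The leukocyte marker list moved with the groups, as given above, and its part in the result was not tested beyond the covariate. With the leukocyte score as a covariate 5 genes fell, and the median log2 fold change was -0.36. The score ran from -0.0884 to 4.17 in Ctrl and from 3.83 to 7.39 in iKO, so it nearly followed the group. A call lost under this covariate therefore cannot tell a smaller change from a less precise estimate.

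**Figure D1:**
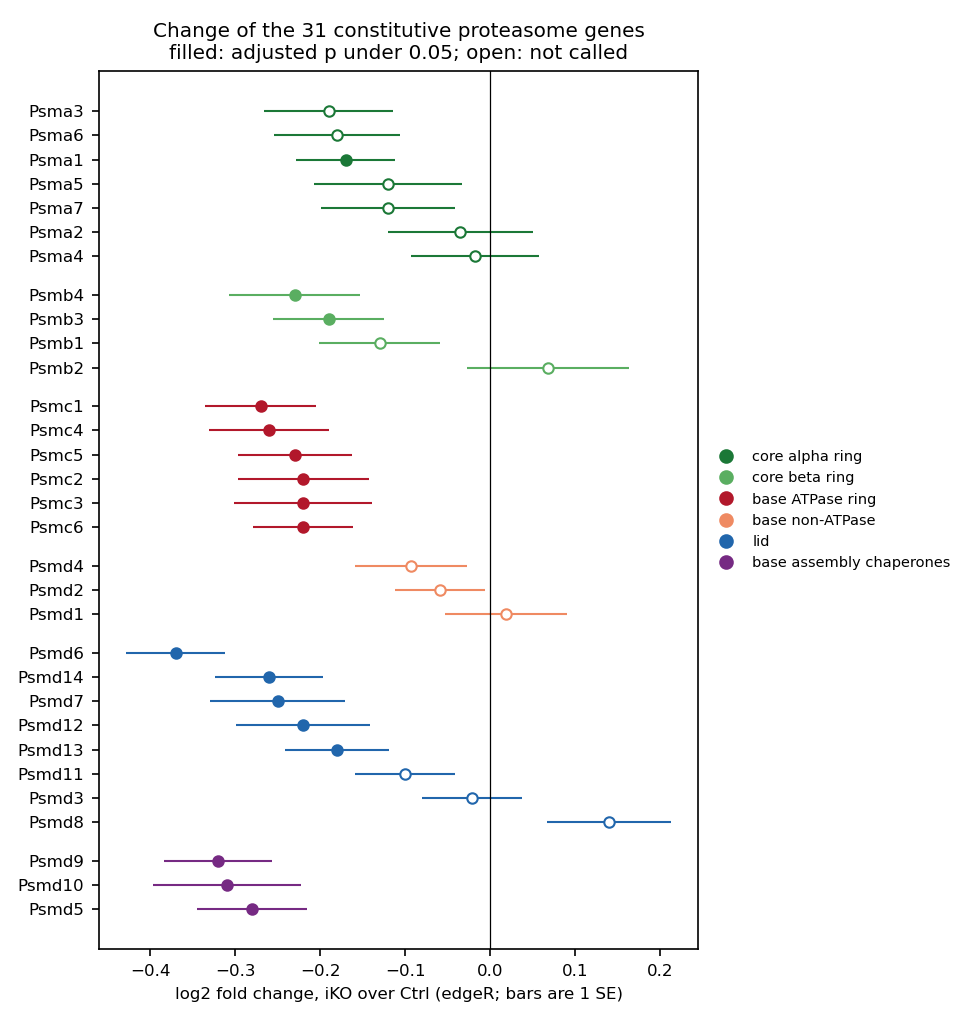
Log2 fold change of iKO over Ctrl (horizontal axis) for each of the 31 genes (vertical axis), grouped by subcomplex, from edgeR. Points are estimates, bars are 1 SE, and filled points passed an adjusted p of 0.05. All 6 ATPase genes and all 3 chaperone genes are filled and lie left of 0, whereas Psmd8, Psmb2 and Psmd1 lie to its right and are open.

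In the alpha ring 1 of the 7 genes fell, Psma1 (alpha6), and the median of the 7 log2 fold changes was -0.12. Psma1 had a lowest, median and highest value of 122, 131 and 148 CPM in iKO and of 140.1, 148 and 165 CPM in Ctrl. All 6 iKO libraries were below the Ctrl median, and 4 were below the lowest Ctrl library. Its log2 fold change was -0.17 ± 0.058 (SE, edgeR, adjusted p = 0.0261), a call that 5 omissions removed (Ctrl 3, Ctrl 4, Ctrl 5, iKO 2 and iKO 4, adjusted p of 0.0509 to 0.0851). Psma3 (alpha7, -0.19, adjusted p = 0.0539) and Psma6 (alpha1, -0.18, adjusted p = 0.0654) had estimates as large without passing. Psma5 (alpha5) and Psma7 (alpha4) both had -0.12. Psma2 (alpha2) and Psma4 (alpha3) had -0.035 and -0.018, and their groups overlapped almost entirely, with 0 of 6 iKO libraries below the lowest Ctrl library in either gene.

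Of the 4 beta ring genes in the rule, none of which encodes a proteolytic subunit in mammals, 2 fell. Psmb4 (beta7) had 210.0, 252 and 266 CPM as lowest, median and highest iKO values and 256, 285 and 341 CPM in Ctrl. Of the iKO libraries, 5 were below every Ctrl library, and the estimate was -0.23 ± 0.077 (SE, edgeR, adjusted p = 0.0262). Psmb3 (beta3) had 111, 123 and 130.5 CPM in iKO and 128, 133 and 155 CPM in Ctrl, a log2 fold change of -0.19 ± 0.065 (adjusted p = 0.0255). Both calls were lost without Ctrl 3, Ctrl 4, Ctrl 5 or iKO 4, at adjusted p of 0.0521 to 0.0995 for Psmb4 and 0.0518 to 0.1 for Psmb3. Psmb1 (beta6) had -0.13 (adjusted p = 0.138). Psmb2 (beta4) had 0.068 (adjusted p = 0.582), with 63.4, 78.3 and 87.4 CPM in iKO and 62.6, 71.5 and 84.4 CPM in Ctrl, so that its groups overlapped over almost their whole range.

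In the ATPase ring every gene fell, and differences between subcomplexes were not tested. All 6 Psmc genes passed the test, with log2 fold changes from -0.27 to -0.22, and all 6 iKO libraries were below the Ctrl median in every one of them. Psmc1 (Rpt2; mm10 chromosome 12, 100110154 to 100123405), whose tail opens the gate of the core, had 210.1, 247 and 263 CPM in iKO and 266, 292 and 321 CPM in Ctrl. The groups did not overlap, and the log2 fold change was -0.27 ± 0.065 (SE, edgeR, adjusted p = 0.00409). Psmc4 (Rpt3; chromosome 7, 28041707 to 28050101) had 133, 154 and 173 CPM in iKO and 169.7, 179.7 and 208 CPM in Ctrl. Only its highest iKO library reached into the Ctrl range, and its log2 fold change was -0.26 ± 0.071 (adjusted p = 0.00782). Psmc5 (Rpt6), which had the highest level per kilobase of the 31 genes, had 173, 206 and 215 CPM in iKO and 213, 235 and 266 CPM in Ctrl. It fell by 0.23 ± 0.067 on the log2 scale (adjusted p = 0.0128), with the call lost without Ctrl 4 (adjusted p = 0.0535) or Ctrl 5 (adjusted p = 0.0536).

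The other 3 ATPase genes each had an estimate of -0.22. Psmc6 (Rpt4) had 135, 146 and 166 CPM in iKO and 159, 167 and 183 CPM in Ctrl, with 5 iKO libraries below every Ctrl library. The SE was 0.059 (edgeR, adjusted p = 0.00775), and the call was kept in all 12 omissions. Psmc2 (Rpt1) had 140.0, 174 and 188 CPM in iKO and 179, 194 and 224 CPM in Ctrl, with 4 iKO libraries below every Ctrl library. The estimate was -0.22 ± 0.077 (adjusted p = 0.0327), and the call was lost in 6 omissions (Ctrl 2, Ctrl 3, Ctrl 4, Ctrl 5, iKO 4 or iKO 5, adjusted p of 0.0538 to 0.128). Psmc3 (Rpt5), which also has a tail that docks into the core, had 188, 219.9 and 241 CPM in iKO and 219.7, 245 and 299 CPM in Ctrl, with 3 iKO libraries below every Ctrl library. The estimate was -0.22 ± 0.081 (adjusted p = 0.0399), and 6 omissions removed the call (Ctrl 3 to 5, iKO 2, iKO 4 and iKO 5, adjusted p of 0.0524 to 0.14). Of its exon bases 8.25% are shared with Slc39a13 on the opposite strand. The summed level of the 6 genes was 1160.2, 1141, 1229, 981, 1076 and 1187 CPM in iKO libraries 1 to 6 and 1239.8, 1237, 1335, 1405, 1497 and 1267 CPM in Ctrl libraries 1 to 6. Every iKO sum was below every Ctrl sum.

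**Figure D2:**
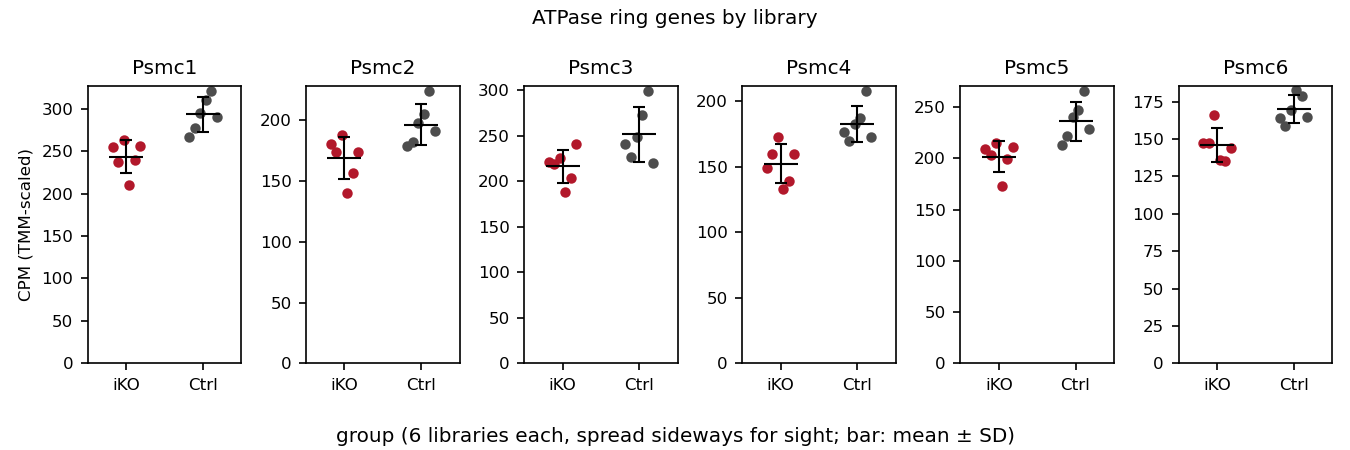
TMM-scaled CPM (vertical axes, each starting at 0) of the 6 ATPase ring genes in the iKO and Ctrl groups (horizontal axes). Points are libraries, 6 per group, and bars are the mean ± SD. The Psmc1 groups do not overlap, while in Psmc3 3 iKO libraries reach into the Ctrl range.

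None of the 3 base subunits outside the ATPase ring passed the test. Psmd2 (Rpn1), a docking platform for ubiquitin-binding proteins, had -0.059 (edgeR, adjusted p = 0.385) and Psmd4 (Rpn10), a ubiquitin receptor, -0.093 (adjusted p = 0.266). Psmd1 (Rpn2), the other large scaffold of the base, had 0.019 (adjusted p = 0.853), with 173, 217 and 235 CPM in iKO and 200.0, 209.8 and 213 CPM in Ctrl. Its iKO libraries lay on both sides of the Ctrl range, and its sign turned under upper-quartile scaling (-0.045) and under library totals alone (-0.0093).

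Of the 8 lid genes 5 fell, and the range of changes was the widest of the subcomplexes, from -0.37 to 0.14. Psmd6 (Rpn7; chromosome 14, 14112174 to 14120984), a structural lid subunit, had the largest fall of all 31 genes. It had 70.3, 78.6 and 81.8 CPM in iKO and 93.4, 98 and 111 CPM in Ctrl, and the groups did not overlap. Its log2 fold change was -0.37 ± 0.058 (SE, edgeR, adjusted p = 0.000227), a change of -22.6%, and remained called in all 12 omissions and with the leukocyte score as covariate (-0.64, adjusted p = 0.00227). Psmd14 (Rpn11; chromosome 2, 61711694 to 61800376), the metalloprotease that cuts ubiquitin chains from substrates, had 97.5, 114 and 118 CPM in iKO and 122, 133 and 145 CPM in Ctrl. These groups did not overlap either, and the log2 fold change was -0.26 ± 0.063 (adjusted p = 0.00428).

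Psmd7 (Rpn8), the partner of Psmd14 in the lid, had 147, 176 and 198 CPM in iKO and 186, 202 and 232 CPM in Ctrl, with 5 iKO libraries below every Ctrl library. It had a log2 fold change of -0.25 ± 0.079 (SE, edgeR, adjusted p = 0.0193), lost without Ctrl 3, Ctrl 4 or Ctrl 5 (adjusted p of 0.0612 to 0.0724). Psmd12 (Rpn5) had 106, 126 and 148 CPM in iKO and 136, 145 and 165 CPM in Ctrl, with 5 iKO libraries below every Ctrl library. The estimate was -0.22 ± 0.079 (adjusted p = 0.0309), lost in 6 omissions (Ctrl 2, Ctrl 3, Ctrl 4, Ctrl 5, iKO 4 or iKO 5, adjusted p of 0.0536 to 0.0999). Psmd13 (Rpn9) had 114, 121 and 133 CPM in iKO and 128, 137 and 155 CPM in Ctrl, a log2 fold change of -0.18 ± 0.061 (adjusted p = 0.0262), which 4 omissions removed (Ctrl 3 to 5 and iKO 4, adjusted p of 0.0526 to 0.088). Psmd11 (Rpn6), a clamp between lid and core, had -0.10 (adjusted p = 0.194) and Psmd3 (Rpn3) -0.021 (adjusted p = 0.79). Psmd8 (Rpn12), the last subunit to join the lid in yeast, had the opposite sign: 329, 376 and 418 CPM in iKO and 315, 333 and 383 CPM in Ctrl, with 5 of 6 iKO libraries above the Ctrl median. The log2 fold change of 0.14 ± 0.073 did not pass (adjusted p = 0.137), but it passed without Ctrl 5 (0.20).

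All 3 genes of base assembly chaperones fell. Psmd9, which binds the ATPases early in assembly, had 36.3, 38.2 and 39.8 CPM in iKO and 44.5, 45.6 and 54.7 CPM in Ctrl. The groups did not overlap, and the log2 fold change was -0.32 ± 0.063 (SE, edgeR, adjusted p = 0.00105). Psmd5 had 43.5, 48.4 and 53.2 CPM in iKO and 54, 59.2 and 62.8 CPM in Ctrl, again without overlap, with a log2 fold change of -0.28 ± 0.065 (adjusted p = 0.00357). Psmd10, which encodes gankyrin, an ATPase chaperone also described as an oncoprotein, had 18.4, 22.3 and 25.3 CPM in iKO and 24.6, 26.4 and 30.2 CPM in Ctrl. Only its highest iKO library reached into the Ctrl range, and its log2 fold change was -0.31 ± 0.087 (adjusted p = 0.0105). The 3 calls held in all 12 omissions. Of the exon bases of Psmd9 25.5% are shared with Gm26745 on the opposite strand, which had 0 counts in all 12 libraries.

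To see which genes departed from the complex, the levels were also scaled to the mean log2 level of the 31 genes in each library, a choice made after the data were seen. On this scale 5 genes were above the others in iKO (background 31.4% of tested genes above) and 2 below (background 8.78% below). None of the ATPase genes was among them (edgeR, adjusted p of 0.103 to 0.464). Psmd8 lay above by 0.31 ± 0.082 (SE, log2, edgeR, adjusted p = 0.00856) and Psmb2 by 0.23 ± 0.07 (adjusted p = 0.0192), both in all 12 omissions. Psmd6 lay below by -0.20 ± 0.056 (adjusted p = 0.0104), also in all 12. Psmd1, Psmd3 and Psma4 lay above by 0.17, 0.14 and 0.15 (adjusted p = 0.0458, 0.0318 and 0.0492), in 4, 7 and 3 of the 12 omissions, and Psmd9 lay below by -0.15 (adjusted p = 0.039), in 2 of them. The number above was 2 without Ctrl 3 or without iKO 3, 3 without Ctrl 4, Ctrl 6, iKO 2, iKO 4, iKO 5 or iKO 6, and 1 without iKO 2 and iKO 3 together. The number below was 1 in 10 of the 12 omissions, the exceptions being iKO 4 and iKO 5.

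The libraries of a group did not hold the genes at the same level. The median over the 31 genes of the log2 ratio to the Ctrl mean was -0.18, -0.15, -0.088, -0.38, -0.22 and -0.074 in iKO libraries 1 to 6. In Ctrl libraries 1 to 6 it was -0.078, -0.10, -0.0069, 0.071, 0.17 and -0.059. The medians of iKO 3 and iKO 6 thus lay within the Ctrl range, close to those of Ctrl 1, Ctrl 2 and Ctrl 6. Of the 31 genes 23 had their lowest value of all 12 libraries in iKO 4, and 22 had their highest in Ctrl 5. These libraries also had the highest leukocyte marker sum of their group, 2074 CPM in iKO 4 and 242 CPM in Ctrl 5. In iKO 6, however, a sum of 1800.4 CPM went with the highest iKO median, -0.074. How leukocyte markers and the 31 genes relate across libraries was not tested. In iKO 1, with a leukocyte sum of 199.8 CPM, 30 of the 31 genes were below the Ctrl mean. So were 31 in Ctrl 1, 28 in Ctrl 2 and 31 in Ctrl 6, so this count does not set iKO 1 apart from those Ctrl libraries. The median of iKO 1, -0.18, was nevertheless below the lowest Ctrl median, -0.10. Among the Ctrl libraries, the 3 with the largest totals (Ctrl 1, Ctrl 2 and Ctrl 6) had the lowest medians, and the part of depth in the result was not tested.

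**Figure D3:**
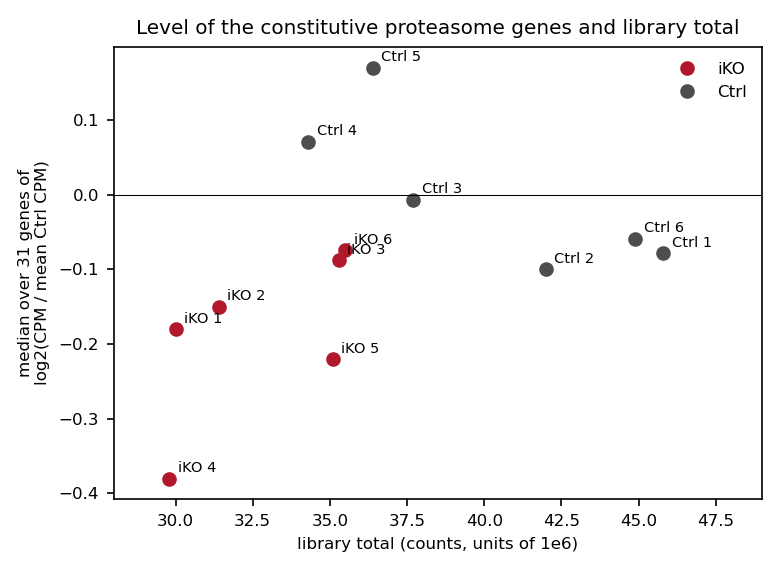
Median over the 31 genes of log2(CPM / mean Ctrl CPM) (vertical axis) against the library total (horizontal axis, counts in units of 1e6). Points are the 6 iKO and 6 Ctrl libraries. The iKO medians run from -0.38 (iKO 4) to -0.074 (iKO 6) and the Ctrl medians from -0.10 (Ctrl 2) to 0.17 (Ctrl 5).

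**Figure D4:**
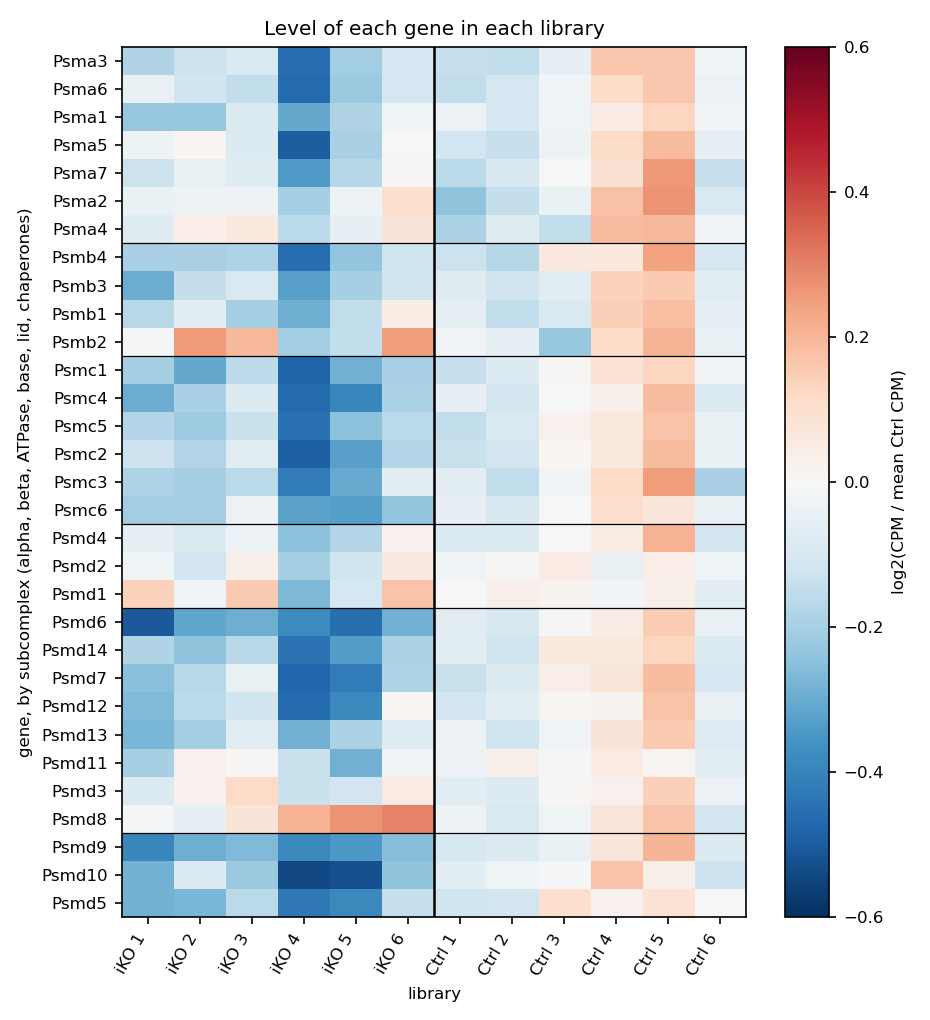
Log2(CPM / mean Ctrl CPM) of each of the 31 genes (vertical axis, by subcomplex) in each library (horizontal axis, iKO left and Ctrl right). Blue is below and red above the Ctrl mean. The iKO 4 column is blue in every row but Psmd8, whose row is red in iKO 3 to iKO 6, and the Ctrl 5 column is red in all 31 rows.

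Levels per kilobase of deposited gene length differed widely between genes of a complex that holds most subunits in equal number. Averaged over the 12 libraries, they ran from 157 CPM per kilobase in Psmc5 and 139 in Psmc1 down to 23.1 in Psmd11 among particle subunits. The chaperone genes were the 3 lowest of the 31, at 16.5 for Psmd10, 7.4 for Psmd5 and 5.91 for Psmd9. In the ATPase ring Psmc2 stood at 33.6 CPM per kilobase in iKO and 39 in Ctrl, against 145 in iKO and 169 in Ctrl for Psmc5. These levels rest on the gene lengths as deposited, 5031 bases for Psmc2 and 1394 for Psmc5. Before division by length the group means were 169 CPM in iKO and 196 in Ctrl for Psmc2. For Psmc5 they were 202 CPM in iKO and 236 in Ctrl, so this contrast came mostly from the lengths.

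Genes that act with the constitutive particle were set beside it, in lists written with earlier results of these data known. The 5 genes of the immunoproteasome and of PA28, its interferon-induced activator, moved the other way: all 5 passed as higher, with a median of 1.35 on the log2 scale. Their summed level was 469, 842, 651, 619, 688 and 842 CPM in iKO libraries 1 to 6 and 220.2, 222, 240.5, 265, 306 and 219 CPM in Ctrl libraries 1 to 6, so the groups were fully apart. Psmb8 rose most (2.63 ± 0.19, SE, edgeR, adjusted p = 1.48e-06), and Psme2, which has a close copy named Psme2b, rose least (1.02 ± 0.22, adjusted p = 0.00339). Under the leukocyte covariate the median was 0.70, and 4 genes passed. Psme2 turned sign there without passing (-0.24, adjusted p = 0.736), and Psmb8 had 1.59 (adjusted p = 0.00263). Of the constitutive catalytic subunits that these replace, Psmb5 (beta5) had 57.7, 71.5 and 81.1 CPM in iKO and 81.3, 86.9 and 110.3 CPM in Ctrl and fell by 0.37 on the log2 scale (adjusted p = 0.00473). Psmb7 (beta2) fell by 0.24 (adjusted p = 0.016), a call lost without Ctrl 3, Ctrl 4 or Ctrl 5 (adjusted p of 0.0502 to 0.0673), and Psmb6 (beta1) had -0.15 (adjusted p = 0.169). Under the leukocyte covariate Psmb5 and Psmb6 passed (-0.67 and -0.50, adjusted p = 0.0228 and 0.0437) and Psmb7 did not (-0.34, adjusted p = 0.191).

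Of the 5 genes of core assembly chaperones 4 fell. Psmg1 and Psmg2, which pair to start the alpha ring, had -0.42 ± 0.12 (SE, edgeR, adjusted p = 0.00971) and -0.42 ± 0.10 (adjusted p = 0.00328). Psmg3 (-0.38, adjusted p = 0.0327) and Pomp (-0.18, adjusted p = 0.0479) lost their calls in 6 and 7 of the 12 omissions, at adjusted p of up to 0.108 and 0.167, and Psmg4 had -0.18 (adjusted p = 0.31). The list's count was 2 when any of Ctrl 3 to 5, iKO 4 or iKO 5 was left out, and 1 with the leukocyte score as covariate, where the median was -0.53. Among 7 other genes of the particle and its partners 2 fell and 2 rose, beside 21.4% and 25.0% of all tested genes. Sem1, the smallest lid subunit, fell by 0.53 (adjusted p = 0.00276) and Uchl5, a deubiquitinase of the base, by 0.43 (adjusted p = 0.000498), both with groups that did not overlap. Ubr4, a large ubiquitin ligase, rose by 1.22 (adjusted p = 9.91e-05) and Ecpas, an adaptor of the particle, by 0.29 (adjusted p = 0.0017), again without overlap. Adrm1 (Rpn13), Usp14 and Ube3c had -0.088, -0.046 and -0.061 and did not pass.

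The counts in the next short lists are to be read beside all tested genes, of which 21.4% fell and 25.0% rose. Of 6 genes of the NRF1 pathway 2 rose and none passed as lower. Nfe2l1 had 259.6, 291 and 359 CPM in iKO and 310.0, 317 and 330.4 CPM in Ctrl, an estimate of -0.086 (adjusted p = 0.318) with iKO libraries on both sides of the Ctrl range. Ddi2, the protease that activates NRF1, rose by 0.43 ± 0.092 (SE, adjusted p = 0.00187), and Nfe2l2, which encodes the related factor NRF2, by 0.21 ± 0.052 (adjusted p = 0.00475). Neither call held with the leukocyte score as covariate, where Ddi2 had 0.37 (adjusted p = 0.295) and Nfe2l2 0.039 (adjusted p = 0.853), and without the filter Nfe2l2 had 0.15 (adjusted p = 0.0564). Vcp, which extracts NRF1 from the membrane of the endoplasmic reticulum, had -0.16 (adjusted p = 0.0649), and Ngly1 and Syvn1 had -0.12 and 0.016. Under upper-quartile scaling 2 of the 6 genes of this list were lower, and under library totals alone 1 was. The number lower was also 2 without iKO 1. Of 5 shuttle receptors, which carry ubiquitylated proteins to the particle, Ubqln1 (-0.15) and Ubqln4 (-0.24) fell and the other 3 did not pass; under the leukocyte covariate 0 of the 5 passed, at a median of -0.12 in both fits. Psme3, a nuclear activator of the core, fell by 0.17 (adjusted p = 0.0153), the other 2 regulators of the core, Psme4 and Psmf1, having 0.13 and 0.12 without passing. Of 6 genes for ubiquitin and its activating enzymes 1 fell, Rps27a (-0.70, adjusted p = 0.0449), which lost its call in 8 of the 12 omissions.

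Genes of 3 other housekeeping complexes were lower too. The COP9 signalosome and eIF3 share the architecture of the lid, and CCT is a chaperonin of the cytosol. All 9 COP9 genes fell with a median log2 fold change of -0.23, 8 of 13 eIF3 genes fell with a median of -0.18, and all 8 CCT genes fell with a median of -0.33. The log2 fold changes ran from -0.30 to -0.15 in COP9, -0.30 to -0.052 in eIF3 and -0.35 to -0.24 in CCT. Close spacing was thus not particular to the proteasome genes. In CCT no gene's groups overlapped. The COP9 count was 5 without Ctrl 5, and the eIF3 count was 5 without Ctrl 3, 3 without Ctrl 4 and 4 without Ctrl 5. With the leukocyte score as covariate the medians were -0.28 for COP9, -0.27 for eIF3 and -0.32 for CCT, while 1 of the 9, 1 of the 8 and 1 of the 8 calls were kept. A further 2 eIF3 genes, Eif3f and Eif3k, passed there and not without the covariate. A list of proliferation genes had a median of -0.54, with 14 of 15 lower, and the melanocyte markers had a median of -0.42. Their sums were 2183 to 2758 CPM in iKO and 3371 to 3534 CPM in Ctrl for proliferation, and the part of these differences in the fall of the proteasome genes was not tested.

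**Figure D5:**
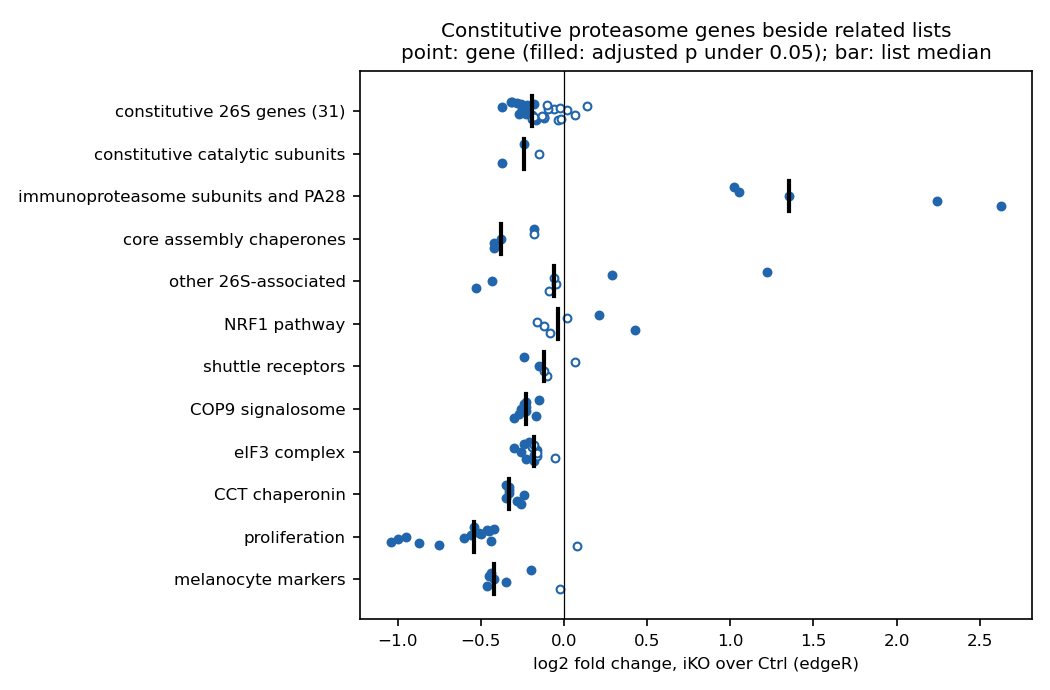
Log2 fold change of iKO over Ctrl (horizontal axis) of the constitutive 26S genes and of related lists (vertical axis), from edgeR. Points are genes, filled where the adjusted p was under 0.05, and black bars are list medians. The constitutive genes (median -0.19) lie among the COP9, eIF3 and CCT lists, while the immunoproteasome and PA28 genes (median 1.35) lie far to the right.

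Promoters were searched because 28 of the 31 log2 fold changes were negative, although 14 genes did not pass. RefSeq promoters (GRCm38.p6, 250 bases before to 50 bases after the start) were found for 26 of the 31 genes, 28 promoters in all, with none for Psmb1, Psmb2, Psmc3, Psmd3 and Psmd7. On either strand, 3 of the 28 held TGACNNNGC, the core of the antioxidant response element that NRF1 binds (10.7%, against 12.4% of all 32851 promoters). The CCAAT box was in 11 (39.3%, against 37.4%). The interferon-stimulated response element, searched as 2 GAAA blocks with 2 free bases between them, was in 3 (10.7%, against 3.44%), and the gamma-activated sequence written TTCNNNGAA in 1 (3.57%, against 8.3%). A match is a description of letters and not a measured binding site. The stretches below are upstream of the RefSeq start on the gene's strand, with the match in capitals. Those of Psmd9 lie inside the deposited span of the gene, chr5:123169413-123250131. They show the response element core in the 3 constitutive genes that held it, all of which fell, as did 17 of all 31. The core is also shown in both catalytic genes with a promoter in the table. Of these Psmb5 fell and Psmb6 did not pass (edgeR, adjusted p = 0.169). The interferon motif is shown in 3 constitutive genes, of which 2 fell.
Psmd9, chr5:123228134-123228189 (+), response element core: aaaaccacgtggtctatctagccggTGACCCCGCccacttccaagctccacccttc
Psmc6, chr14:45329574-45329630 (+), response element core, other strand: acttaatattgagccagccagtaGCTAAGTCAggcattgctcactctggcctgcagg
Psmd12, chr11:107479278-107479314 (+), response element core, other strand: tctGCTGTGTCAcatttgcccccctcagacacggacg
Psmb5, chr14:54618009-54618067 (-), response element core: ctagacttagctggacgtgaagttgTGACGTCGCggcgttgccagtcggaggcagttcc
Psmb6, chr11:70525323-70525356 (+), response element core: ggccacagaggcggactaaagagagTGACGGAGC
Psmd9, chr5:123228006-123228065 (+), interferon motif: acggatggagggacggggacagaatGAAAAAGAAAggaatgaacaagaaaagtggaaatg
Psmb3, chr11:97703246-97703305 (+), interferon motif, other strand: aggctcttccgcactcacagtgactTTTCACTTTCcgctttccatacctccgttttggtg
Psmd4, chr3:95042660-95042719 (-), interferon motif, other strand: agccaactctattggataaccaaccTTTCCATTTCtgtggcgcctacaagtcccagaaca

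The 3 genes with an interferon motif had log2 fold changes of -0.32 (Psmd9), -0.19 (Psmb3) and -0.093 (Psmd4), so none was higher in iKO. The 3 with a response element core had -0.32 (Psmd9), -0.22 (Psmc6) and -0.22 (Psmd12), within the range of the constitutive genes that lacked it. In the immunoproteasome and PA28 genes, 1 of 6 promoters held the interferon motif, that of Psme1 past the start, and 1 the gamma-activated sequence, the second being that of Psmb8, which rose most. The Psmb8 stretch below is upstream of a RefSeq start but inside the deposited span of the gene, chr17:34197721-34201454.
Psmb8, chr17:34198073-34198131 (+), gamma-activated sequence: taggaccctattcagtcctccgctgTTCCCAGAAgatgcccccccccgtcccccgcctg

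Counting could have mixed reads in few of the 31 genes. Exon bases were shared with another gene in 7 of them, above 10% in 2: Psmd9, described above, and Psmd13, with 10.1% shared with Sirt3 on the opposite strand. Sirt3 held 1697 counts in iKO and 1865 in Ctrl and differed by 0.20 on the log2 scale without passing (adjusted p = 0.314). The table has 6 pseudogene rows that name a proteasome subunit, of which 2 name a constitutive gene considered here (Psmb3 and Psmc3), and these 6 rows held 5 counts in total over all libraries. Of the tissue-restricted core subunits, Psma8 (germ line) had 42 counts in iKO and 3 in Ctrl, and Psmb11 (thymic epithelium) 21 in iKO and 38 in Ctrl, both under the filter.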

How the data were processed

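The authors deposited raw counts per Ensembl gene for 12 libraries (6 iKO, 6 Ctrl, grouped by the labels), with gene lengths beside them. The submitters' processing notes name mm10. RNA was poly-T selected into unstranded libraries, per the labels' protocols. Aligner and counter: not given in the sources used here. The edgeR filter (minimum count 10, minimum total 15) kept 16164 genes with 99.9% of counts. All 30 same-group pairs of libraries differed beyond sampling noise (chi-square per degree of freedom of 7.47 or more, on genes with 20 or more counts). Each library was therefore counted as 1 replicate. Tumours of the same host could differ in this way too, so the check cannot tell whether libraries share a host.

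Groups were compared with edgeR 4.0.16 (robust quasi-likelihood test, TMM, group as the only term; R 4.3.3). P-values were adjusted by Benjamini-Hochberg across every tested gene, with calls at 0.05. The SE is the absolute log2 fold change over the square root of F, an approximation. CPM are TMM-scaled. The leukocyte score is the mean log2 CPM (prior count 2) of 10 markers. The script was tested on simulated data. Alternatives were other scalings, DESeq2 1.42.0, voom (limma 3.58.1), no filter, a replicate block, the leukocyte score as covariate and omitted libraries.

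The genes and lists were chosen with earlier results of these data known. By rule, values were given in each subcomplex for the 2 lowest and 2 highest log2 fold changes among called genes (all called where 4 or fewer) and for the 2 highest levels per kilobase, and in each related list for up to 4 called genes by p. Other genes named with values were chosen after these were seen. Of the table's genes 54409 were found in GENCODE M21 (GRCm38), 98.3% with the same start and end; exon overlaps come from it.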

Additional observations from a re-analysis of the deposited data

Results flagged for a closer look

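In 3 of the 31 genes iKO 4 lay far below the rest of its group, the gap to the next library being over 0.625 of the group's range. Psma3 was at 129 CPM in iKO 4 and at 153 to 166 in the other iKO libraries. Psmb4 was at 210.0 CPM against 245 to 266, and Psmc5 at 173 CPM against 199 to 215. Over the 62 groups looked at, chance alone flags about 1 in 20. The log2 fold change of Psmb4 lost its call without iKO 4, whereas that of Psmc5 did not, and Psma3 was not called.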

How the results depend on the processing

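The 17 falls were also 17 under RLE scaling, DESeq2 and voom. More genes fell under upper-quartile scaling, under library totals alone and without the filter, where estimates were lower. Psma3 had -0.25, -0.22 and -0.25 there (edgeR, adjusted p = 0.0169, 0.0275 and 0.0163), beside -0.19 in the main fit. Psma6 also passed in each (adjusted p = 0.0242, 0.0401 and 0.0235). The size and number of falls thus depended on the scaling. The number of falls was 10 with the replicate block, 5 with the leukocyte score as covariate, 9 without Ctrl 5 and iKO 1, and 8 to 19 over single omissions. The number of rises was 0 throughout, except 1 without Ctrl 5 and 1 without Ctrl 5 and iKO 1, with a range of 0 to 1 over single omissions. The median log2 fold change was -0.36 with the leukocyte score and -0.21 to -0.13 over single omissions. On the scale of the genes' own mean, 2 genes were above without the filter, 1 with the block, 1 with the leukocyte score, 1 without iKO 2 and iKO 3, and 2 to 5 over single omissions. There, 1 was below without the filter, 0 with the block, 0 with the leukocyte score, 1 without Ctrl 5 and iKO 1, 1 without iKO 2 and iKO 3, and 1 to 2 over single omissions. Signs turned in uncalled genes only. Without Ctrl 5 and iKO 1 this gave 0.047 for Psma2, 0.054 for Psma4 and 0.038 for Psmd3. With the leukocyte score it gave -0.20 for Psmb2 and -0.21 for Psmd8. Without iKO 2 and iKO 3 it gave -0.016 for Psmb2 and -0.0064 for Psmd1, and Psmd1 had -0.045 under upper-quartile scaling, -0.0093 under library totals and -0.038 without the filter. Over single omissions Psma2 ran from -0.08 to 0.049, Psma4 from -0.054 to 0.047, Psmd1 from -0.014 to 0.071 and Psmd3 from -0.051 to 0.031. The cause of these shifts was not tested. Replicate numbers did not pair the libraries: correlations of same-numbered deviations from the group means ran from -0.129 to 0.249, and 1 of 6 Ctrl libraries correlated best with its own number.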
